A study of Mus musculus with 4 samples.

Results

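The Wnt pathway genes of mouse skin were followed in embryos with and without overexpression of the transcription factor Ovol2 in the epidermis. Members were the genes whose symbol is Wnt, Fzd, Dkk, Sfrp or Rspo with a number, together with the co-receptor genes Lrp5 and Lrp6, the inhibitor gene Wif1, the Dkk receptor genes Kremen1 and Kremen2, and the intracellular genes Ctnnb1, Apc, Axin1, Axin2, Nkd1, Nkd2, Lef1, Tcf7, Tcf7l1 and Tcf7l2. A probe set naming a single gene was found for 55 of them, out of 19938 genes on the array, and 50 of the 55 passed the filter on low levels. Tcf7 was not analysed here.

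Total RNA of whole skin from E17.5 embryos was hybridised to 4 Affymetrix whole-transcript arrays, each holding RNA pooled from 2 female mice. The 2 control arrays came from mice with the tetracycline-responsive transgene TRE-Ovol2-Flag and no driver, or from wild-type mice, with CB6F1 given as the strain. The 2 Ovol2 BT arrays came from TRE-Ovol2-Flag;K5-tTA mice, with FVB/N given as the strain, although the mice are described as littermates raised together, so that, as labelled, effects of strain and of genotype cannot be told apart. K5-tTA expresses the tetracycline transactivator from the keratin 5 promoter, which is active in basal keratinocytes and the outer root sheath of hair follicles, while the RNA measured also came from dermis, fat, vessels and muscle. In such bulk RNA, fewer cells of a type and less RNA per cell cannot be told apart.

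Wnt proteins are secreted ligands that bind Frizzled receptors and the co-receptors Lrp5 and Lrp6. Binding stops the destruction complex, built on Axin and Apc, from degrading beta-catenin (the product of Ctnnb1), which then acts with Lef1 and the Tcf proteins on target genes. Dkk proteins block the co-receptors, Sfrp proteins and Wif1 bind the ligands themselves, and R-spondins keep Frizzled receptors at the cell surface. In embryonic skin this pathway is known for starting hair placodes in the epidermis and for signalling to the dermal condensate beneath them.

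The overexpressed gene, Ovol2, was far brighter on both transgenic arrays, at 4367 and 3893 against control intensities of 360 and 161 (adjusted p = 0.00311, 95% interval of the log2 difference 3.27 to 4.74). Median intensities of the 4 arrays ranged from 123 to 132. Of 14953 genes tested, 144 (0.963%) were called at an adjusted p under 0.05 in limma, of which 92 were higher and 52 lower in the transgenic skin. That split was 763 higher and 37 lower after each array was centred on its desmosome and adherens junction genes (called junction centring here). The latter fit also took its variances from the trend over all genes alone. Differences below are Ovol2 BT minus control in log2(intensity + 16), which understates changes of dim genes.

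Dkk1 was the only member called, and it was lower. With 1 of 50 tested members called lower, the share was 2% against 0.348% of all genes tested, and no member was called higher (0.615% of all genes). Of the 50, 39 lay below 0 (55.6% of all genes did), and 10 with junction centring. At an unadjusted p under 0.05, 10 members were lower and 0 were higher, against 5.24% and 5.11% of all genes. The 10 were Dkk1, Wnt4, Lef1, Wnt16, Wif1, Wnt7a, Wnt6, Nkd2, Fzd7 and Fzd10. That split depended on the filter on low levels. With no filter, Wnt1 (0.53) and Wnt5b (0.38) passed the same limit as higher, and Fzd7 and Fzd10 no longer passed it. The groups did not overlap for 17 members that were lower and 6 that were higher, where 21.9% of all genes tested were lower without overlap and 20.4% higher. The median difference of the 50 tested members was -0.16, against -0.04 for all genes tested, and the value became 0.28 against 0.40 with junction centring. Over all 55 members it was -0.14. Of the tested members 37 lay below the median of all genes, and 34 with quantile normalization; centring shifts every gene by the same amount and cannot alter this count. Leaving out single arrays gave Dkk1 values between -1.77 and -1.37 and Wnt4 values between -1.16 and -1.03. Lef1 then lay between -1.13 and -0.93.

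**Figure D1:**
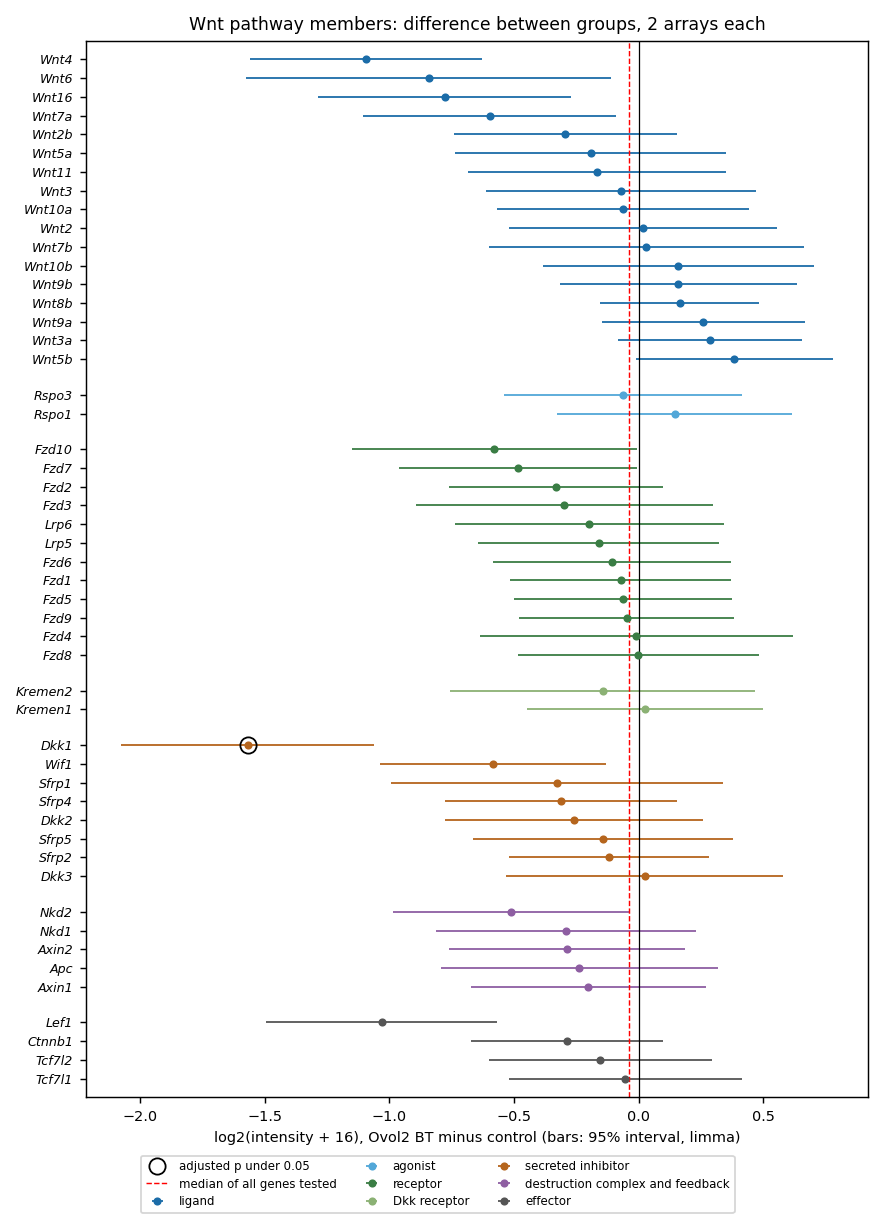
Differences between groups (Ovol2 BT minus control, log2 of intensity + 16) for the 50 tested members, by role, with 95% intervals from limma over 2 arrays per group; the ring marks an adjusted p under 0.05 and the dashed line the median of all genes tested (-0.04). Dkk1 lies farthest to the left at -1.57, followed by Wnt4 and Lef1, and no member reaches 1 on the right.

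The stretches upstream of 3 of these genes are shown because Dkk1 is the called member and Wnt4 and Lef1 have the next smallest p-values. They are the 250 bases before a RefSeq transcript start in the build GRCm38.p6, 5′ to 3′ on the gene's strand. Capitals mark the core recognised by Tcf and Lef proteins, CTTTGA, or its reverse complement TCAAAG.
Dkk1, chr19:30549497-30549746, minus strand: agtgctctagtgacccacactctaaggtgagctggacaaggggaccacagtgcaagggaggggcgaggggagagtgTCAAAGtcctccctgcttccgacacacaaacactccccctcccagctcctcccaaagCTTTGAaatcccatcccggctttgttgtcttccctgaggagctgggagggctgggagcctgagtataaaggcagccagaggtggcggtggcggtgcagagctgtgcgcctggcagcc
Lef1, most downstream of its 4 listed starts, chr3:131156044-131156293, plus strand: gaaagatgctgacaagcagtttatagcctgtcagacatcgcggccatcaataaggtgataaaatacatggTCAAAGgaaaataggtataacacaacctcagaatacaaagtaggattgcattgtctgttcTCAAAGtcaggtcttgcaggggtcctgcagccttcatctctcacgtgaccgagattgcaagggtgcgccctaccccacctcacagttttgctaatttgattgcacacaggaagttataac
Wnt4, chr4:137277385-137277634, plus strand: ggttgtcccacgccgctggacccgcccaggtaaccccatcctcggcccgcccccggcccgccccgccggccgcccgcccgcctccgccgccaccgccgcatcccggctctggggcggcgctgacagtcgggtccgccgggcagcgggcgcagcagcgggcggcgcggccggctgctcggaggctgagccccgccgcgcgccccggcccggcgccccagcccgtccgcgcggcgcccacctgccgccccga
The Dkk1 stretch holds the core at -174 and -117 from the start, and the Lef1 stretch holds it at -180 and -120. The windows of the other 3 Lef1 starts hold no core, and this start was shown because it holds it. The Wnt4 stretch holds none, and 85.2% of its bases are G or C, against 60.8% for Dkk1 and 44.8% for this start of Lef1. RefSeq windows from 250 bases before to 50 bases after a start were at hand for 36 of the 55 members, 44 windows in all. Searched on both strands, 5 of the 44 windows (11.4%) held CTTTGA, against 16% of all 32851 windows, and the other 3 belong to Fzd1, Wnt11 and Wnt5b. The core reported for Ovol2, CCGTTA, was in 0 of the 44 member windows and in 2.76% of all windows. These matches describe letters only, and the array does not tell transcripts of different starts apart.

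Among the ligands, 4 genes had an unadjusted p under 0.05, all lower, where 5.24% of all genes tested passed as lower. None of the 17 tested ligands was called. Their median difference was -0.06, and 9 lay below 0 (4 with junction centring). Below the median of all genes there were 9, and 7 with quantile normalization. The latter scaling gave a ligand median of 0.0076, against -0.0067 for all genes. Wnt4, a ligand of the interfollicular epidermis, had intensities of 624 and 568 in the controls against 272 and 269 in Ovol2 BT. Its arrays stood clearly apart, with a gap between the nearest arrays of 1.02 against 0.13 and 0.02 between replicates. The difference was -1.09 (SE 0.21, 95% interval -1.56 to -0.63, 2.14-fold, adjusted p = 0.0503), just outside the threshold, and a second Wnt4 probe set gave -1.03. Wnt4 was called with the lower 50% of genes left out (adjusted p = 0.0321) and without a variance trend (adjusted p = 0.0427), and its adjusted p was 0.170 at the highest over the 16 alternatives.

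Wnt16, a ligand found in hair follicle and interfollicular epidermis, was at 132 and 185 in the controls and at 69.0 and 103 in Ovol2 BT. The difference of -0.78 (SE 0.22, interval -1.29 to -0.27, adjusted p = 0.245) came with replicate gaps of 0.45 and 0.49, larger than the gap of 0.31 between the groups. Leaving out single arrays gave between -1.02 and -0.54. Wnt6, an ectodermal ligand, was at 394 and 253 in the controls and at 238 and 119 in Ovol2 BT. The spread within each Wnt6 group was wider than the step between the nearest arrays, 253 to 238. Its difference was -0.84 (SE 0.32, interval -1.58 to -0.11, adjusted p = 0.422). Leaving out Ovol2 BT replicate 1 or 2 gave Wnt6 values of -1.30 and -0.39. Leaving out control replicate 1 or 2 gave -0.54 and -1.15. Wnt7a, known for dorsal patterning of limb ectoderm, had intensities of 129 and 88.7 in the controls against 82.6 and 51.1 in Ovol2 BT. The Wnt7a groups were likewise separated only narrowly, and the difference was -0.60 (SE 0.22, adjusted p = 0.410). Leaving out Ovol2 BT replicate 1 gave -0.88, and leaving out Ovol2 BT replicate 2 gave -0.32; the control arrays left out in the same way gave -0.36 (replicate 1) and -0.83 (replicate 2).

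None of the next 6 ligands was called. Wnt10b, an early placode ligand, was at 256 and 204 in the controls and at 310 and 213 in Ovol2 BT (difference 0.16, interval -0.39 to 0.70, adjusted p = 0.832), and leaving out single arrays gave between -0.10 and 0.41. Wnt10a, a ligand of placodes and teeth, was at 322 and 295 against 341 and 254 (-0.06, interval -0.57 to 0.44, adjusted p = 0.931). For both genes the Ovol2 BT arrays bracketed the control arrays or overlapped them. Wnt3, an epidermal ligand, was at 326 and 240 against 306 and 230 (-0.07, interval -0.61 to 0.47, adjusted p = 0.926). Wnt7b, an epidermal ligand of the canonical branch, was at 478 and 326 against 502 and 323 (0.03, interval -0.60 to 0.66, adjusted p = 0.978). These 2 genes varied more between arrays of the same group than between groups. The ligand Wnt5a, a dermal and papilla signal of the non-canonical branch, was at 475 and 551 against 373 and 532 (-0.19, interval -0.74 to 0.35, adjusted p = 0.790). Wnt11, also of the non-canonical branch, was at 192 and 171 against 198 and 128 (-0.17, adjusted p = 0.810).

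The ligands with values above 0 had small differences. Wnt3a, a canonical ligand, was at 110 and 101 in the controls and at 131 and 134 in Ovol2 BT, a difference of 0.29 (SE 0.16, interval -0.09 to 0.66, adjusted p = 0.587). Wnt5b, a relative of Wnt5a, was at 130 and 121 against 167 and 171, at 0.38 the highest difference of any tested member (SE 0.17, interval -0.01 to 0.78, adjusted p = 0.494). Together with Wnt8b, Wnt9a and Wnt9b these made 5 tested ligands whose Ovol2 BT arrays both exceeded the controls, and 5 (Wnt2b, Wnt4, Wnt6, Wnt7a and Wnt16) lay entirely below, beside 20.4% and 21.9% of all genes tested. The remaining ligand, Wnt2, differed by 0.02. Wnt1 and Wnt8a were below the filter, with Wnt1 at 37.6 and 32.4 in the controls against 59.7 and 55.7 in Ovol2 BT (0.53 with no filter, adjusted p = 0.313).

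In the reference gene order 4 pairs of ligand genes are direct neighbours. Wnt6 and Wnt10a had values of -0.84 and -0.06. Wnt3a and Wnt9a were at 0.29 and 0.26, and Wnt9b and Wnt3 at 0.16 and -0.07. For Wnt10b and Wnt1 the values were 0.16 and 0.53. The differences within pairs were not tested.

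**Figure D2:**
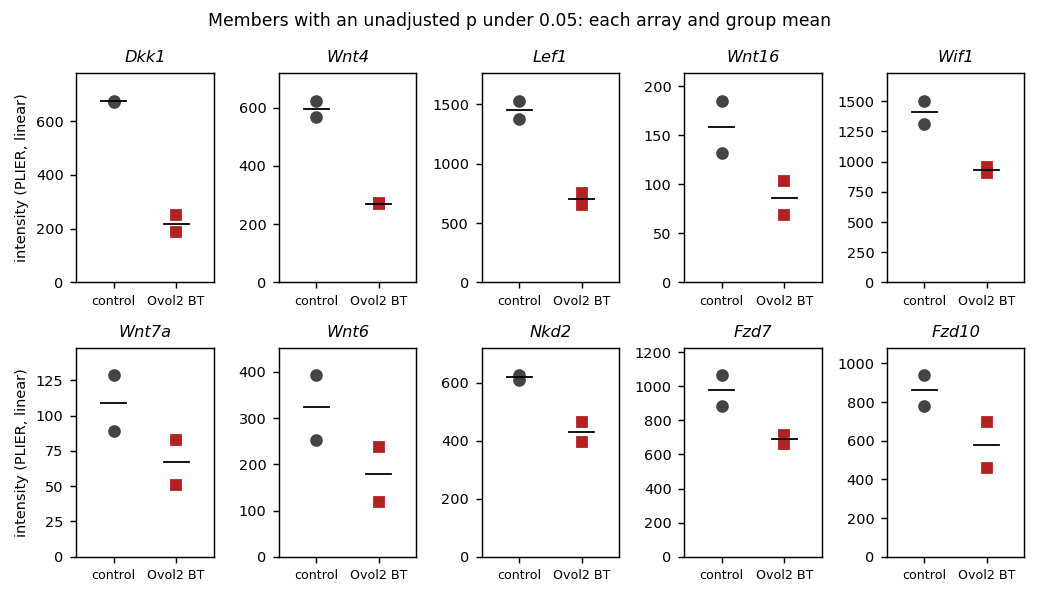
Deposited intensity (linear scale from 0) on each array for the 10 members with an unadjusted p under 0.05; circles are the 2 control arrays, squares the 2 Ovol2 BT arrays, and lines the group means. Dkk1, Wnt4 and Lef1 show a wide gap between the groups (Dkk1 671 and 677 against 186 and 251), whereas the nearest arrays of Wnt6 and Wnt7a almost meet.

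Of the R-spondins, ligands of the Lgr receptors that strengthen Wnt signals, 2 of 4 were tested and neither was called. Rspo1 was at 637 and 632 in the controls and at 652 and 757 in Ovol2 BT (0.14, interval -0.33 to 0.61, adjusted p = 0.822), higher on both Ovol2 BT arrays by a small margin, and at 0.04 without Ovol2 BT replicate 2 and 0.25 without Ovol2 BT replicate 1. Rspo3 was at 153 and 204 against 154 and 185 (-0.06, interval -0.54 to 0.42, adjusted p = 0.929), with the groups overlapping. Rspo2 and Rspo4 were below the filter, between 35.5 and 60.7 on all arrays.

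None of the 12 receptor and co-receptor genes was called. Their differences ran from -0.58 to -0.00 with a median of -0.13; all 12 lay below 0 (10 with quantile normalization, 2 with junction centring), and 10 lay below the median of all genes. Fzd10, a Frizzled receptor of embryonic ectoderm, was at 941 and 779 in the controls and at 698 and 460 in Ovol2 BT. Its groups did not overlap, and the difference was -0.58 (SE 0.25, interval -1.15 to -0.01, adjusted p = 0.476). It was -0.87 without Ovol2 BT replicate 1 and -0.29 without Ovol2 BT replicate 2. Fzd7, a receptor for canonical ligands, was at 885 and 1067 against 664 and 716 (-0.49, SE 0.21, interval -0.96 to -0.01, adjusted p = 0.473), also without overlap. Fzd2 was the third Frizzled gene whose groups were apart, at 1831 and 1858 against 1556 and 1371 (-0.33, adjusted p = 0.587).

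Fzd6, the receptor that orients hair follicles in the skin, was at 544 and 624 in the controls and at 512 and 569 in Ovol2 BT (-0.11, interval -0.58 to 0.37, adjusted p = 0.872), with values between -0.20 and -0.01 when single arrays were left out. The co-receptor gene Lrp6 was at 767 and 1100 against 739 and 862 (-0.20, interval -0.74 to 0.34, adjusted p = 0.783). Lrp5 was at 1176 and 1131 against 1172 and 904 (-0.16, interval -0.64 to 0.32, adjusted p = 0.805). For these 3 genes the arrays of the groups overlapped. Fzd4 also varied mainly between replicates, at 589 and 863 against 572 and 875, a difference of -0.01. The Dkk receptor genes Kremen1 and Kremen2 differed by 0.03 and -0.14, with adjusted p-values of 0.972 and 0.865.

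The secreted inhibitors included the called gene. Dkk1, which blocks Lrp5 and Lrp6 and is itself a target of beta-catenin, had intensities of 677 and 671 in the controls against 251 and 186 in Ovol2 BT. The control arrays were almost equal and the Ovol2 BT arrays lay far below them, with a gap of 1.36 between the nearest arrays. The fall was 1.57 on the log2 scale (SE 0.22, 95% interval -2.08 to -1.06, 2.97-fold, adjusted p = 0.0138). Dkk1 was called under all 16 alternatives, with differences from -1.77 to -1.13 and adjusted p-values no higher than 0.0310.

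None of the other Dkk genes was called. Dkk2, a Dkk protein of mesenchyme, was at 113 and 187 in the controls and at 115 and 123 in Ovol2 BT (-0.26, interval -0.78 to 0.26, adjusted p = 0.706). Its value rested on control replicate 2, without which it was 0.07. Dkk3, a divergent family member, was at 405 and 427 against 344 and 520 (0.02, interval -0.53 to 0.58, adjusted p = 0.979). Dkk4, a placode target of Wnt and ectodysplasin signals, was below the filter at 49.1 and 62.6 against 48.4 and 45.9. The differences between Dkk1 and the other Dkk genes were not tested.

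Wif1, a secreted protein that binds Wnt ligands, was at 1506 and 1312 in the controls and at 959 and 905 in Ovol2 BT. The groups were separated by 0.45, and the difference was -0.59 (SE 0.20, interval -1.04 to -0.13, adjusted p = 0.348). Sfrp1, a secreted Frizzled-related inhibitor, was at 750 and 780 against 439 and 833, so that a single Ovol2 BT array carried its difference of -0.33 (interval -0.99 to 0.34, adjusted p = 0.709). Without Ovol2 BT replicate 1 the Sfrp1 value was 0.12. Sfrp2, Sfrp4 and Sfrp5 differed by -0.12, -0.31 and -0.14, with adjusted p-values from 0.627 to 0.842. Of the 8 tested inhibitors 7 lay below 0 (2 with junction centring), with a median of -0.29. Below the median of all genes there were 7, and also 7 with quantile normalization.

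The destruction complex and feedback genes had 5 of 5 values below 0 and below the median of all genes (1 below 0 with junction centring), and none was called. Nkd2, which binds Dishevelled and dampens the signal, was at 627 and 610 in the controls and at 464 and 397 in Ovol2 BT. Its groups did not overlap (-0.51, SE 0.21, interval -0.99 to -0.04, 1.43-fold, adjusted p = 0.451). Axin2, the feedback gene most widely read as a measure of beta-catenin activity, was at 845 and 859 against 759 and 637. Axin2 also lay lower on both Ovol2 BT arrays, by 1.22-fold (-0.29, SE 0.21, interval -0.76 to 0.18, adjusted p = 0.651), and leaving out single arrays gave between -0.41 and -0.16, the latter without Ovol2 BT replicate 2. Nkd1, Apc and Axin1 differed by -0.29, -0.24 and -0.20.

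Among the effectors, Lef1 had the lowest value and none was called. Lef1, the partner of beta-catenin in hair placodes, matrix and dermal papilla, had intensities of 1532 and 1378 in the controls against 756 and 654 in Ovol2 BT. The gap of 0.85 between the nearest arrays was larger than the replicate gaps of 0.15 and 0.20. The difference was -1.03 (SE 0.20, 95% interval -1.49 to -0.57, 2.04-fold, adjusted p = 0.0653), outside the threshold. It was called with the lower 50% of genes left out (adjusted p = 0.0298) and without Ovol2 BT replicate 1 (-1.13, adjusted p = 0.0381), and its adjusted p was 0.206 at the highest over the 16 alternatives.

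Ctnnb1, which encodes beta-catenin, was at 3757 and 4361 in the controls and at 3144 and 3493 in Ovol2 BT. The groups were apart by a narrow margin (-0.29, SE 0.17, interval -0.67 to 0.10, 1.22-fold, adjusted p = 0.594), with -0.39 without control replicate 1 and -0.18 without control replicate 2. Tcf7l2, a Tcf protein, was at 1126 and 1089 against 957 and 1032 (-0.15, interval -0.60 to 0.29, adjusted p = 0.798). Tcf7l1, a repressor of basal and follicle stem cells, was at 1624 and 1635 against 1793 and 1372, with the Ovol2 BT arrays on either side of the controls (-0.05, interval -0.52 to 0.41, adjusted p = 0.936). The 4 effectors tested were all below 0 (1 with junction centring). All 4 lay below the median of all genes, and 3 with quantile normalization. Lef1 was the only tested effector whose 95% interval excluded 0; whether it differed from the others was not tested.

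For the 49 tested members that were not called, the 95% interval lay within 2-fold either way for 42 and reached a 2-fold decrease for 7, and none reached a 2-fold increase. The median replicate gap over the tested members was 0.17 in the controls and 0.24 in Ovol2 BT, against a median size of 0.20 for the differences between groups. Over all genes tested these medians were 0.19, 0.24 and 0.19. A difference between means of 2 arrays varies less than a gap between single arrays, so these sizes are not a test.

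Genes of the pathway outside the members were taken from lists of 93 genes, of which 3 were called, all lower (0.348% of all genes tested were called lower, 0.615% higher). Of the 93, 77 lay below 0 and 74 below the median of all genes (17 below 0 with junction centring). The 3 called genes, Lhx2, Msx2 and Edar, are on the list of 25 genes taken here as skin targets of beta-catenin, members left out. Whether beta-catenin acted on these 3 genes in this skin was not tested. Lhx2, a homeodomain factor of follicle progenitors, was at 1288 and 1667 in the controls and at 386 and 418 in Ovol2 BT, and the fall was 1.83 (SE 0.22, adjusted p = 0.00732). Msx2, a homeobox factor of placode and matrix, was at 208 and 240 against 96.5 and 74.8 and fell by 1.24 (adjusted p = 0.0191, SE 0.19). Edar, which encodes the receptor for ectodysplasin, was at 461 and 479 against 207 and 179 and fell by 1.22 (adjusted p = 0.0299, SE 0.21). For these 3 genes the groups were far apart.

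The skin target list had 20 of 25 genes lower without overlap between groups (21.9% of all genes) and a median of -0.32, which became 0.12 with junction centring, against 0.40 for all genes. Tnfrsf19, a receptor of placodes, was at 815 and 883 in the controls and at 478 and 499 in Ovol2 BT (-0.78, adjusted p = 0.186). The skin targets with an unadjusted p under 0.05 were Lhx2, Msx2, Edar, Tnfrsf19, Cd44, Cdh3, Shh, Lgr5 and Bmp2. These 9 genes were all lower, where 5.24% of all genes tested passed that limit as lower. Lgr5 is in the receptor list too. The target list was chosen with earlier results of these data known.

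Among co-receptors and genes of receptor turnover, 0 of 9 were called. An unadjusted p under 0.05 was found for 2, both R-spondin receptors and both lower (5.24% of all genes tested). Lgr5, a receptor of follicle stem cells, was at 673 and 890 in the controls and at 419 and 470 in Ovol2 BT (-0.78, SE 0.23, 1.72-fold, adjusted p = 0.248). Lgr6, its relative in the upper follicle, was at 977 and 988 against 684 and 392 (-0.90, SE 0.27, 1.87-fold, adjusted p = 0.272). Both had non-overlapping groups, as had Lgr4 at -0.42 (adjusted p = 0.594). Of the ligand secretion genes, Porcn, the enzyme that adds the lipid Wnt proteins need, was at 344 and 269 against 673 and 500. Porcn was thus higher on both Ovol2 BT arrays (0.90, SE 0.24, 1.86-fold, adjusted p = 0.197), while Wls, the Wnt cargo receptor, was at -0.14 (adjusted p = 0.862).

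Of 14 other extracellular regulators 0 were called, with 2 at an unadjusted p under 0.05, both lower (5.24% of all genes tested). Tpbg, a membrane protein that restrains Wnt signals, was at 523 and 522 in the controls and at 264 and 257 in Ovol2 BT, with replicates nearly equal and the groups far apart (-0.96, SE 0.20, 1.95-fold, adjusted p = 0.0824). Ndp, which encodes the Fzd4 ligand norrin, was at 176 and 201 against 116 and 102 (-0.71, SE 0.18, adjusted p = 0.170). The inhibitor genes Sostdc1, at 0.30 (adjusted p = 0.611), and Apcdd1, at -0.25 (adjusted p = 0.643), did not pass the test.

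**Figure D3:**
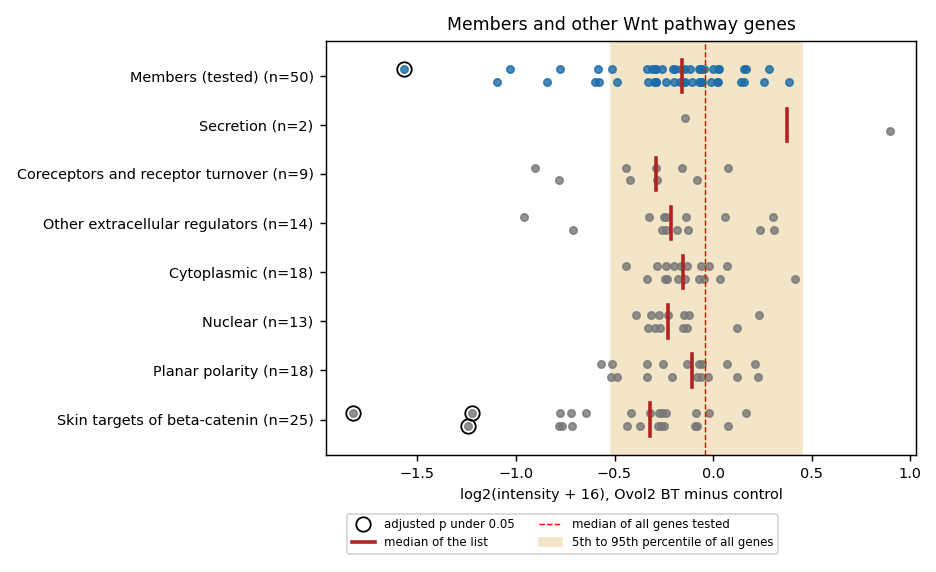
Differences (Ovol2 BT minus control, log2 of intensity + 16) of the tested members and of the other pathway genes by list, with members left out of the lists; each point is a gene, thick lines are list medians, the band spans the 5th to 95th percentile of all genes tested (-0.52 to 0.45) and rings mark an adjusted p under 0.05. Rings appear on Dkk1 among the members and on Lhx2, Msx2 and Edar among the skin targets, and on no other list.

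Summed levels of some cell type marker lists differed between the groups and others overlapped. For the counts below, 0.348% of all genes tested were called lower, 0.615% were called higher and 21.9% were lower without overlap. The summed intensity of 8 hair placode and matrix markers, of which 3 were called lower and 7 were lower without overlap, was 5183 to 5611 in the controls and 2986 to 3409 in Ovol2 BT; Lhx2, Edar, Msx2, Shh and Sox9 are in this list as well as among the skin targets. The 7 basal keratinocyte markers, with Krt5, Krt14 and Krt15 called lower, summed to between 22316 and 24725 against 11100 and 13067. The other 4 markers of that list were not called, with Itgb4 at 0.24, Itga6 at -0.05, Col17a1 at -0.23 and Trp63 at -0.35. The 7 dermal papilla markers, 6 of them lower without overlap and none called, summed to between 8283 and 9753 against 5734 and 7519. Suprabasal keratinocyte markers (5 measured) summed to between 34421 and 42468 against 32519 and 35132, with 0 called, and fibroblast markers (7) to between 33242 and 34379 against 33408 and 34605, with 0 called. Adipocyte markers (7, with 4 called higher) summed to between 3958 and 5613 against 17719 and 17930. Brown adipocyte, skeletal muscle and immune sums were also higher on both Ovol2 BT arrays, and melanocyte sums lower. The endothelial sum was higher too, at 5547 and 6905 against 5363 and 5263 in the controls. Its mean log2 level was higher only on Ovol2 BT replicate 2. No marker of these lists was below 16 on any array. The part of these shifts in the values of Dkk1, Wnt4, Lef1 and the other members was not tested.

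**Figure D4:**
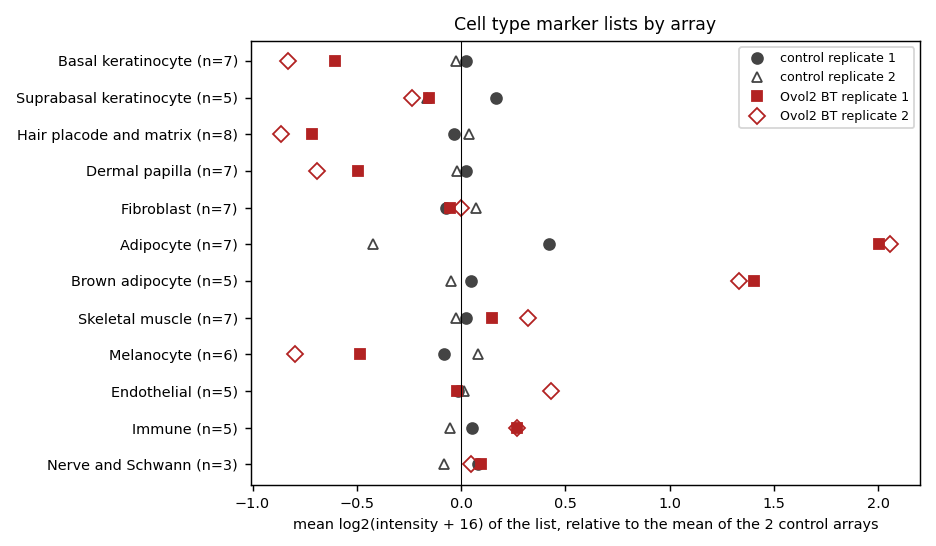
Mean log2(intensity + 16) of cell type marker lists on each array, relative to the mean of the 2 control arrays (the number of markers measured is in parentheses); filled and open symbols are replicates 1 and 2, grey the controls and red Ovol2 BT. Hair placode, basal keratinocyte, dermal papilla and melanocyte lists lie lower on both Ovol2 BT arrays. The adipocyte, brown adipocyte, skeletal muscle and immune lists lie higher on both. The fibroblast list lies within 0.07 of the control mean on all arrays.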

How the data were processed

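Probe set values of 4 arrays were deposited as linear intensities, made with PLIER 2.0 in Affymetrix Expression Console 1.1.1, per the submitters' processing notes. Neither the background correction nor the normalization nor the genome build is given in the sources used here. From these intensities log2(intensity + 16) was computed. Each gene was represented by the probe set with the highest mean among those annotated to that gene alone, and the 25% of genes with the lowest mean were left out. Groups were compared with limma 3.58.1 in R 4.3.3 (eBayes, trend in the variance, residual degrees of freedom 2, prior 6.94). The p-values were adjusted by Benjamini-Hochberg over 14953 genes, with a threshold of 0.05. The fit was checked on data simulated from its own model, which cannot show a misfit to the real arrays. Intervals are 95% intervals from limma. The replicates are separate pools of 2 mice, and with 2 arrays per group precision is limited. The p-values rest on the spread between these arrays, with each gene's variance drawn toward the trend over all genes.

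The members and gene lists were chosen with earlier results of these data known, as was the list of cell junction genes used for 1 added scaling. Array values were given for members called or with an unadjusted p under 0.05, for pathway genes of a fixed list, and for up to 4 genes of each other list by smallest p. Fzd2, Fzd4, Wnt1, Wnt5b, Lgr4, Wls, Sostdc1 and Apcdd1 were named after their values were seen. Promoter sequences are RefSeq's (GRCm38.p6). Protein sequences were not used here. Alternatives changed the pseudocount, filter, scaling, variance trend, probe set rule, replicate block, threshold and arrays.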

Additional observations from a re-analysis of the deposited data

How the results depend on the processing

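Over 16 alternatives, 474 values of 30 genes (29 tested members and Ovol2) were recomputed: 428 kept their direction and side of the threshold, 14 passed it anew and 32 reversed. Dkk1 and Ovol2, the 2 genes past it in the main setting, stayed past it in all 16. The looser threshold of 0.10 could not have removed them. The number of members called was 1 in the main setting and 2 without a variance trend (Dkk1 and Wnt4). It was 3 with the lower 50% of genes left out or at a threshold of 0.10 (Dkk1, Lef1 and Wnt4 in each). With junction centring, an alternative chosen after seeing the data, the members' median was 0.28 and 800 genes were called. The prior degrees of freedom were infinite in that fit, against 6.94 in the main one. Its count of calls therefore also reflects variances taken from the trend over all genes alone. Under it these values reversed: Axin2 0.15, Ctnnb1 0.15, Dkk2 0.18, Fzd6 0.33, Lrp5 0.28, Lrp6 0.24, Rspo3 0.38, Sfrp1 0.11, Tcf7l1 0.39, Tcf7l2 0.29, Wnt10a 0.38, Wnt11 0.27, Wnt3 0.37 and Wnt5a 0.25. All genes moved up by the centring itself, to a median of 0.40. Under quantile normalization Wnt10a was at 0.0076. Leaving out single arrays gave 206 to 366 genes called in all, most without control replicate 1, and these ranges that cross 0: Dkk2 -0.59 to 0.067, Dkk3 -0.26 to 0.31, Lrp5 -0.34 to 0.023, Lrp6 -0.45 to 0.056, Rspo3 -0.25 to 0.13, Sfrp1 -0.78 to 0.12, Tcf7l1 -0.25 to 0.14, Wnt10a -0.26 to 0.14, Wnt10b -0.10 to 0.41, Wnt11 -0.45 to 0.12, Wnt3 -0.28 to 0.14, Wnt5a -0.44 to 0.054 and Wnt7b -0.28 to 0.33. There the lone array of a group is assumed to vary like the others. With the replicate number as a block, 671 genes were called (348 lower, 323 higher), with 6 members (Dkk1, Lef1, Wif1, Wnt16, Wnt4 and Wnt6) and 12 other pathway genes. Across genes, arrays sharing a number deviated from their group means with a correlation of 0.41, but the labels state no pairing and only 2 pairs exist. The cause of these shifts was not tested, and the planned comparison of protein sequences was not run.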

Other observations

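Lists of genes that carry the signal inside the cell, apart from the members, held 0 calls, near the share of 0.963% over all genes tested. Of 18 cytoplasmic genes, such as the Dishevelled and casein kinase genes, 0 were called and 0 had an unadjusted p under 0.05 in limma; their median difference was -0.15. Of 13 nuclear cofactors, such as the Tle co-repressors, which bind Tcf proteins, 0 were called and 0 had an unadjusted p under 0.05, with a median of -0.23. Of 18 planar polarity and non-canonical genes 0 were called and 2 had an unadjusted p under 0.05, both lower (5.24% of all genes tested). They were Daam1, a formin that links Dishevelled to actin, at -0.52 (adjusted p = 0.432), and Nfatc1, a factor of calcium signalling and follicle stem cells, at -0.49 (adjusted p = 0.473). The median of the planar polarity list was -0.11. Each of these medians lay below that of all genes tested, -0.04. With junction centring each was above 0, where the median of all genes was 0.40.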
